A study of Mus musculus with 3 samples.

Results

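The genes described are Elavl1, Hnrnpd, Khsrp, Tia1, Tial1, Pcbp1, Pcbp2 and Ybx1, which encode HuR, AUF1, KSRP, TIA-1, TIAR, the poly(C)-binding proteins PCBP1 and PCBP2, and YB-1. These 8 of the 55536 annotated genes were matched by symbol, and each symbol had a single gene identifier. They were measured in macrophages that had been grown in culture from the bone marrow of C57BL/6J mice. All cells had received Lipid A, the TLR4-binding part of endotoxin, at 100 ng/ml for 12 hours, then a washout of 12 hours, then a second exposure of 25 minutes at 100 ng/ml. RNA of the cytosolic fraction was sequenced without ribosomal RNA from 1 µg of input, as 3 biological replicates of 1 group that share a donor entry, so each SD is the spread of these samples alone, part of which may be technical. The sex and age of the mice are not given. No untreated, singly treated or nuclear sample was analysed here, so no effect of Lipid A could be measured. What could be asked was how abundant each gene's RNA was in the cytosol, in which transcript forms, and how far the libraries differed.

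Proteins of this kind bind messenger RNA, often in the 3′ untranslated region (3′ UTR), and change how long the message lasts and how well it is translated. Many macrophage messages, Tnf among them, carry AU-rich elements made of repeats of ATTTA. HuR usually protects such messages, KSRP speeds their decay, AUF1 can do either, and TIA-1 and TIAR hold translation back under stress. PCBP1 and PCBP2 bind runs of C, and YB-1 packages messages in the cytosol. None of these activities was measured here: the values are RNA levels.

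2 AU-rich stretches from GENCODE release M21 transcripts (mouse build mm10) show the element that HuR, AUF1 and KSRP are known for, in a target and in the longer transcript of Elavl1 itself. Capitals mark matches to TTATTTATT on the transcript strand, with overlapping matches merged and matches that cross an edge shown in part.
Tnf 3′ UTR, chr17:35199681-35199710, minus strand: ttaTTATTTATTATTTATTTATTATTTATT
Elavl1-201 3′ UTR, chr8:4285780-4285809, minus strand: aaaTTATTTATTTATTTATTTATTtTTATT

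The next stretches are the alternative coding exons that decide which protein form a transcript of AUF1, TIA-1, TIAR or PCBP2 encodes. Capitals mark the alternative part, and the 10 lower-case bases on each side belong to the neighbouring exon sequence of the spliced transcript. Each is a whole number of codons long, so the reading frame is kept whether it is present or not.
Hnrnpd exon of 147 bases, chr5:99963731-99963877, minus strand: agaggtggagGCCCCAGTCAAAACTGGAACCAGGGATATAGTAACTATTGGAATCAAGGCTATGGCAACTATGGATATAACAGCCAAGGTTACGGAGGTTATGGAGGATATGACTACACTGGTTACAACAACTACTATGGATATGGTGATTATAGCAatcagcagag
Hnrnpd exon of 57 bases, chr5:99976534-99976590, minus strand: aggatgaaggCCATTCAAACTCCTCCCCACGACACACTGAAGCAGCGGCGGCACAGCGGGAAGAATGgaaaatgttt
Tia1 exon of 33 bases, chr6:86419101-86419133, plus strand: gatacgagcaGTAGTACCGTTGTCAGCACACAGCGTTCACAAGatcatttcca
Tial1 extension of 51 bases, chr7:128448720-128448770, minus strand: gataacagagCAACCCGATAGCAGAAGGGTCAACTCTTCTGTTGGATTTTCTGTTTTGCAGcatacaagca
Pcbp2 exon of 93 bases, chr15:102485948-102486040, plus strand: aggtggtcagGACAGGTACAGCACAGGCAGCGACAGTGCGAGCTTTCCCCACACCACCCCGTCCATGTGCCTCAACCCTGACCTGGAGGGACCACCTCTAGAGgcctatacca
Pcbp2 exon of 39 bases, chr15:102488776-102488814, plus strand: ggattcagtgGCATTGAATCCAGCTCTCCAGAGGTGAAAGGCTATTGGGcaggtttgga

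The libraries held 55517261, 21311556 and 45635014 counts in replicates 1, 2 and 3, so low values are least precise in replicate 2. Nuclear protein-coding genes made up 29.6%, 40.4% and 34.8% of the summed TPM, a level per length that the authors scaled within each library, and this moves all TPM values of a library together, so TPM rescaled to these genes is given where libraries are compared. All 8 of 8 macrophage markers, such as Cd68 and Csf1r, reached 1 TPM throughout, and 0 of 14 markers of other blood and stromal cells did, their summed level being 0.54, 0.52 and 0.34 TPM. Replicate 1 held more of the nuclear RNAs in protein-coding CPM, which is CPM with the counts of nuclear protein-coding genes as the total. Malat1 had 8329, 3480 and 1444 in replicates 1, 2 and 3. For Neat1 the values were 924, 212 and 152, and for Xist 803, 42.3 and 23.1. In such bulk samples, fewer cells of a type and less RNA per cell cannot be told apart.

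All 8 genes were expressed in every library, and their levels spanned a wide range. Their median was 34.9 TPM, against 9.38 TPM for the 9604 nuclear protein-coding genes that averaged 1 TPM or more, called expressed genes here. The poly(C) binder Pcbp2 was the most abundant, Ybx1 came second, and the TIA-1 gene Tia1 was the least abundant and the only member below the median of expressed genes. In the order of levels, 6 of 7 neighbouring pairs were separated in TPM, meaning that every library of the higher gene exceeded every library of the lower one. The exception was Elavl1 and Khsrp. After rescaling to protein-coding genes 5 pairs were separated, Pcbp1 and Hnrnpd being the further exception. An exact two-sided sign-flip test over 3 libraries cannot give a p under 0.25, so the order is a description.

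**Figure D1:**
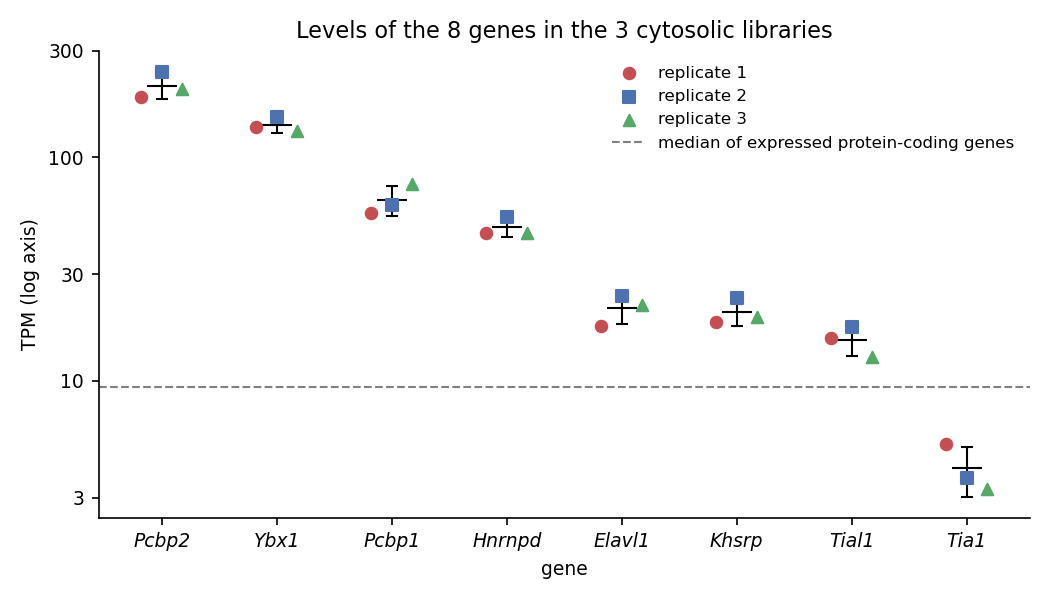
TPM of the 8 genes (log axis) in replicates 1 (circles), 2 (squares) and 3 (triangles), with the mean (dash) and SD (bars), and the median of 9604 expressed protein-coding genes as a dashed line at 9.38 TPM. Pcbp2 lies highest at 209 TPM on average and Tia1, at 4.06 TPM, lies below the dashed line.

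Elavl1 (ENSMUSG00000040028.10, chr8:4285382-4325413, minus strand) encodes HuR, which stabilizes messages that carry AU-rich elements. It had 17.6, 24.0 and 21.8 TPM in replicates 1, 2 and 3, from 3539, 1346 and 2895 counts. The mean of 21.1 ± 3.26 TPM (SD, n = 3) placed it among the top 27.3% of expressed genes. Rescaled to protein-coding genes, the 3 libraries were close together at 59.4, 59.4 and 62.6 TPM. The biological coefficient of variation between libraries, estimated by edgeR from the counts of all genes, was 0.120 for Elavl1, at percentile 1 of 12361 genes tested, against a median of 0.175. With the spread estimated from each gene alone it was at percentile 15, with DESeq2 at percentile 5.3, and with a library left out at 3.5 to 3.8.

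Both coding transcripts of Elavl1 encode the same 326 codons and differ in the 3′ UTR. Elavl1-201 has a 3′ UTR of 4218 bases and Elavl1-204 one of 1257 bases. The short form had 13.0, 18.8 and 16.3 TPM in replicates 1, 2 and 3, and the long form had 1.84, 1.71 and 1.53 TPM. The credibility bounds that the authors deposited did not overlap between the forms in any library, the closest being 2.01 TPM as the upper bound of the long form and 12.2 TPM as the lower bound of the short form in replicate 1. The long form was 12.4%, 8.33% and 8.60% of the 2 forms together by TPM (mean 9.77 ± 2.26%, SD, n = 3), and 7.01 ± 1.43% in the table made from reads. Because the long form is longer it held more of the reads, 22.1 ± 4.36% of the counts of both forms. A retained-intron transcript of 613 bases, Elavl1-203, took 14.7%, 14.4% and 18.2% of the gene's TPM from 91.4, 35.2 and 106 counts, which was 2.95% of its counts on average.

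The long 3′ UTR of Elavl1 holds many of these letters and the short one few. Elavl1-201 held 8 matches to TTATTTATT, overlaps counted, and 17 to ATTTA, against 0 and 3 in Elavl1-204. The motif was searched on the transcript strand only, since the element acts in RNA. Among 1407 3′ UTRs within 20% of the length of that of Elavl1-201, itself included, 17.9% held TTATTTATT at least once, and 95.4% held fewer ATTTA. Over 1 transcript for each of 20911 protein-coding genes the share was 7.61%, and in the list of 20 messages known for AU-rich elements it was 10 of 20, Tnf having 5 matches. The 3′ UTRs of the complete coding transcripts of the other 7 genes held 0 matches to TTATTTATT, which says only that these letters are not there. A match is a description and not a binding site.

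Of the 3 relatives of HuR that are known from neurons, Elavl2 and Elavl4 had 0 counts throughout and Elavl3 had 1, 0 and 2 counts. The limit that a count of 0 allows, 3 counts, was 0.0626, 0.153 and 0.0740 protein-coding CPM, which covers counting error only. Elavl1 had 73.8, 68.8 and 71.4 protein-coding CPM, so its relatives were near or under the limit of detection and Elavl1 was far above it.

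Khsrp (ENSMUSG00000007670.10, chr17:57021051-57031522, minus strand) encodes KSRP, which recruits decay enzymes to AU-rich messages. Its level was 18.3, 23.4 and 19.4 TPM in replicates 1, 2 and 3, a mean of 20.4 ± 2.69 TPM (SD, n = 3). The ratio of Elavl1 to Khsrp was 0.962, 1.03 and 1.12 in these libraries, so the genes of a stabilizing and a destabilizing protein could not be ordered. Its coefficient of variation was 0.123, at percentile 3.1, which became 10.1 from this gene alone, 0.9 with DESeq2 and 3.2 to 6.4 with a library left out, highest without replicate 1. Nearly all of its RNA was 1 form, Khsrp-201 with 748 codons, at 98.4%, 98.8% and 94.7% of the complete coding transcripts. The alternative form of 721 codons had 0.28, 0.29 and 1.02 TPM, highest in replicate 3. Of the related far-upstream-element binders, Fubp1 averaged 22.1 ± 2.41 TPM and Fubp3 6.79 ± 0.401 TPM (SD, n = 3).

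Hnrnpd (ENSMUSG00000000568.15, chr5:99955935-99978938, minus strand) encodes AUF1, a binder of AU-rich elements whose 4 protein forms differ in the 2 Hnrnpd exons printed above. It had 45.9, 54.1 and 46.0 TPM in replicates 1, 2 and 3, a mean of 48.7 ± 4.69 TPM (SD, n = 3), in the top 11.9% of expressed genes. That was 2.31-fold the level of Elavl1 on average, and between 2.11-fold and 2.61-fold in the single libraries. Its coefficient of variation was 0.127, at percentile 7.1, which became 32.2 from this gene alone, 13.9 with DESeq2 and 3.7 to 17.7 with a library left out, highest without replicate 1. Of its relatives, Hnrnpab was more abundant at 77.5 ± 5.58 TPM and Hnrnpdl less abundant at 24.3 ± 5.83 TPM (SD, n = 3), and Hnrnpab exceeded Hnrnpd in 3 of 3 libraries.

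Among the complete coding transcripts of Hnrnpd, the form p42, which has the 147-base exon and lacks the 57-base exon, led in every library. The 336-codon p42 made up 72.8%, 73.8% and 71.6% of them by TPM in replicates 1, 2 and 3 (mean 72.7 ± 1.09%, SD, n = 3). The smallest form, p37 with 287 codons and neither exon, had 15.4%, 18.9% and 14.9%. The forms with the 57-base exon were lower: p40 with 306 codons had 8.33%, 5.83% and 11.9%, and p45 with 355 codons and both exons had 3.52%, 1.46% and 1.65%. The table made from reads also put p42 first, at 72.5%, 79.6% and 70.7%. The shares of p42 and p37 did not overlap in either table. The order of the minor forms was not settled: by alignment-based counts p40 exceeded p37 in replicate 3, at 13.6% and 12.6%, and p45 exceeded p37 in replicate 1, at 14.2% and 12.4%. The only p45 transcript, Hnrnpd-211, also has the longest 3′ UTR, 5429 bases, so its share rests on that end as well as on the exons.

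These shares concern 47.2% of the gene's TPM, because the rest lay in incomplete or non-coding models. One of the 2 largest of these was Hnrnpd-208, annotated for nonsense-mediated decay, a pathway that degrades messages with an early stop, at 36.2%, 26.3% and 28.1% of the gene's TPM from 1344, 337 and 768 counts. The other was Hnrnpd-210, a 493-base model without a complete coding frame, which had 23.8%, 9.89% and 28.1%, from 268, 37.4 and 245 counts, lowest in replicate 2. Hnrnpd-208 was the larger on average in the alignment-based table, at 30.2% and 20.6%, and Hnrnpd-210 in the read-based one, at 29.2% and 25.1%. Over all models, inclusion of the 57-base exon was 46.3%, 19.8% and 48.8%, against 11.9%, 7.29% and 13.5% over complete models, so the value depends on a short fragment that holds the exon. Inclusion of the 147-base exon was 40.5%, 53.2% and 45.4% over all models, against 76.6%, 75.2% and 73.6% over complete models.

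**Figure D2:**
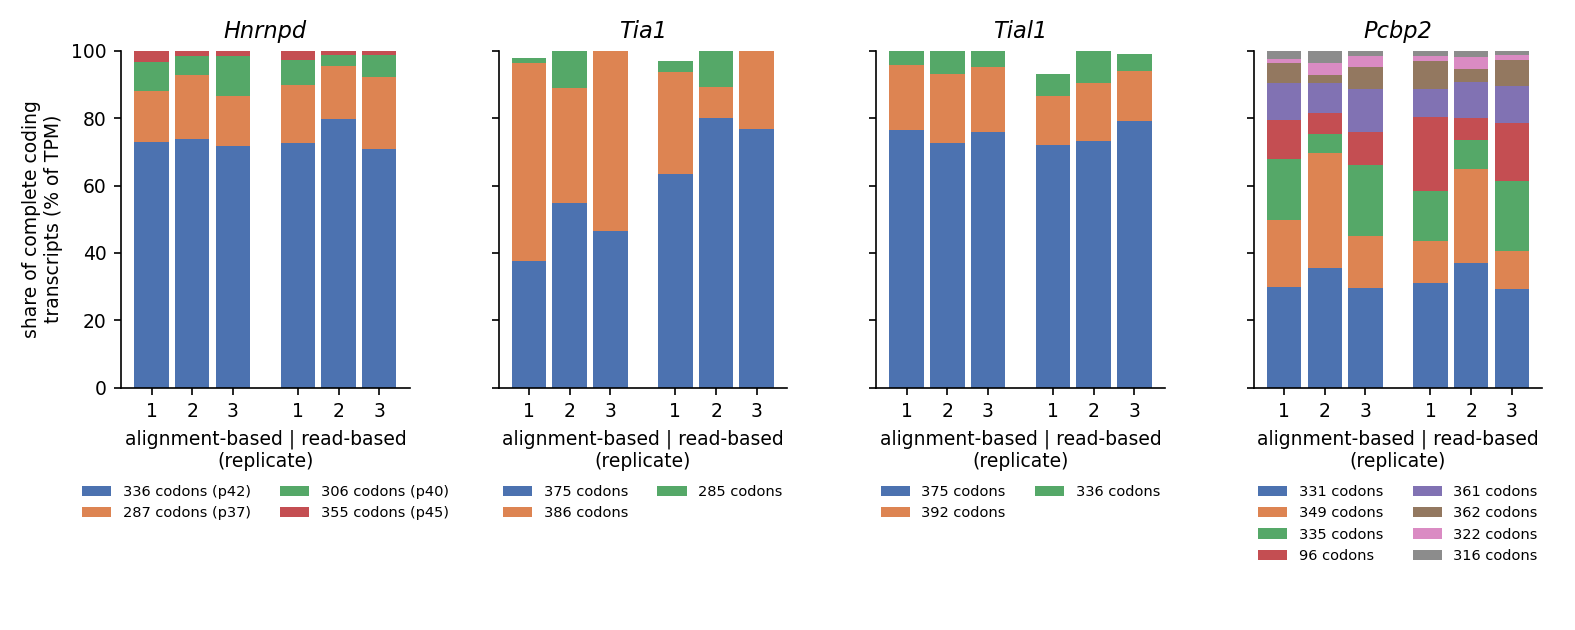
Share of each coding length among the complete coding transcripts (% of TPM) of Hnrnpd, Tia1, Tial1 and Pcbp2, in replicates 1 to 3, with the alignment-based table as the left 3 bars of each panel and the read-based table as the right 3; lengths under 1% on average are not drawn. The 336-codon p42 form of Hnrnpd takes over 70% of every bar, whereas the order of the 375-codon and 386-codon forms of Tia1 differs between the tables in replicates 1 and 3.

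Tia1 and Tial1 encode TIA-1 and TIAR, related proteins of stress granules, the cytosolic bodies in which stalled messages collect. Tial1 (ENSMUSG00000030846.15, chr7:128439777-128461717, minus strand) had 15.6, 17.4 and 12.8 TPM, a mean of 15.3 ± 2.31 TPM (SD, n = 3). Tia1 (ENSMUSG00000071337.11, chr6:86404219-86433405, plus strand) had 5.22, 3.66 and 3.29 TPM, a mean of 4.06 ± 1.02 TPM, from 1270, 295 and 476 counts. The groups of values did not overlap, and Tial1 was 2.99-fold, 4.75-fold and 3.89-fold above Tia1 in replicates 1, 2 and 3. In replicates 1 and 2 the TPM of Tia1 lay below its own deposited bounds, 5.35 to 6.51 and 4.54 to 6.83 TPM. By the posterior mean TPM, also deposited, Tial1 averaged 15.4 TPM and Tia1 5.13 TPM, so the folds above may be too large. Only part of the RNA of Tia1 was of the complete coding kind, 51.3% of TPM on average, against 77.1% for Tial1. Summed over protein-coding models and rescaled, Tial1 had 36.5, 32.2 and 32.0 TPM, against 7.63, 5.76 and 4.40 TPM for Tia1.

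By TPM, the coding lengths of Tial1 had similar shares in the 3 libraries. The 375-codon form without the 51-base extension took 76.4%, 72.6% and 75.8% of the complete coding transcripts in replicates 1, 2 and 3, and the 392-codon form with it took 19.3%, 20.6% and 19.3% (mean 19.8 ± 0.736%, SD, n = 3). The read-based table gave 14.8%, 17.0% and 15.0% for the longer form. By counts the longer form had more, 41.1% on average in the alignment-based table and 34.6% in the read-based one. The 375-codon form sums 2 transcripts whose own shares were uneven. Tial1-201 had 42.8%, 44.0% and 66.0% of the gene's TPM and Tial1-211 had 10.2%, 10.4% and 0%. The 392-codon transcript Tial1-202 has a 3′ UTR of 2756 bases, against 253 bases in the leading 375-codon transcript Tial1-201, so reads from that end also assign it. A decay-annotated transcript, Tial1-205, took 12.4%, 17.0% and 3.91% of the gene's TPM from 98.8, 43.7 and 18.7 counts, lowest in replicate 3.

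For Tia1 the mix of forms was not settled by these data. The 386-codon form with the 33-base exon made up 58.8%, 33.9% and 53.6% of the complete coding transcripts in the alignment-based table and 30.4%, 9.36% and 23.1% in the read-based table. The 375-codon form had 37.6%, 54.9% and 46.4% in the alignment-based table, against 63.4%, 79.9% and 76.9% in the read-based one. The deposited bounds of the 2 leading transcripts overlapped in every library, for example from 0.424 to 1.09 TPM for Tia1-201 and from 1.02 to 1.65 TPM for Tia1-202 in replicate 1. Tia1 has 28 annotated transcripts and had the fewest counts of the 8 genes in every library.

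Pcbp1 and Pcbp2 encode binders of C-rich stretches that stabilize long-lived messages and act in translation control. Pcbp2 (ENSMUSG00000056851.14, chr15:102470539-102500061, plus strand) had 187, 240.1 and 201 TPM, a mean of 209 ± 27.6 TPM (SD, n = 3), rank 207 among 9604 expressed genes. Pcbp1 (ENSMUSG00000051695.6, chr6:86524492-86526321, minus strand) had 56.4, 61.4 and 75.6 TPM, a mean of 64.5 ± 9.97 TPM. Pcbp2 was 3.31-fold, 3.91-fold and 2.66-fold above Pcbp1, so the difference was larger than the spread between libraries. Pcbp1 and Hnrnpd were neighbours whose TPM values did not overlap, but after rescaling to protein-coding genes they did, at 190.4, 152 and 218 TPM for Pcbp1 and 155, 134 and 132 TPM for Hnrnpd. In the same family, Hnrnpk averaged 131 ± 57.1 TPM, with 196.6 TPM in replicate 2, against 99.0 and 96.5 TPM in replicates 1 and 3. Its protein-coding CPM was 339.7, 316 and 311, with no such gap. Pcbp4 averaged 0.837 ± 0.375 TPM and Pcbp3 0.320 ± 0.384 TPM. The TPM of Pcbp4 lay below its own deposited bounds in every library. Its posterior mean TPM averaged 3.47 TPM, so the level of Pcbp4 may be higher than the TPM shows.

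Pcbp1 has a single transcript of 356 codons, whereas Pcbp2 has 31. The most abundant complete form of Pcbp2 was the 331-codon form, which has the 39-base exon and lacks the 93-base exon, with 29.9%, 35.4% and 29.5% of the complete coding transcripts in replicates 1, 2 and 3. The 349-codon form, which has the 93-base exon and lacks the 39-base exon, had 20.0%, 34.2% and 15.4%, highest in replicate 2. Over all models the 93-base exon was included in 46.7%, 57.8% and 45.7% of TPM, and the 39-base exon in 71.0%, 72.1% and 70.7% (mean 71.3 ± 0.748%, SD, n = 3). A further alternative exon of 42 bases was included in 98.0%, 97.1% and 98.4%. The read-based table gave 49.1%, 58.1% and 47.9% for the 93-base exon, so both tables had replicate 2 highest. The even inclusion of the 39-base exon was seen only in alignment-based TPM over all models. Over complete models it was 78.5%, 62% and 80.1% in replicates 1, 2 and 3. In the read-based table over all models it was 81%, 75% and 80%. Replicate 2 was lowest in both of these settings.

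Ybx1 (ENSMUSG00000028639.14, chr4:119277981-119294604, minus strand) encodes YB-1, a cold-shock-domain protein that coats messages. It had 136, 152 and 131 TPM, a mean of 140 ± 10.8 TPM (SD, n = 3), and was 2.18-fold above Pcbp1 on average, while Pcbp2 was 1.49-fold above Ybx1. Nearly all of it was the 322-codon transcript Ybx1-201, at 89.0%, 95.7% and 93.3% of the gene's TPM. Of the other Y-box genes, Ybx3 averaged 13.1 ± 1.78 TPM and Ybx2, known from germ cells, had 0 counts in all libraries. Ybx1 has 5 processed pseudogenes among its near-identical copies, of which 3 held alignment-based counts. Ybx1-ps2 and Gm11560 led them, and the summed counts came to 0.117%, 0.108% and 0.275% of those of Ybx1 in replicates 1, 2 and 3.

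**Figure D3:**
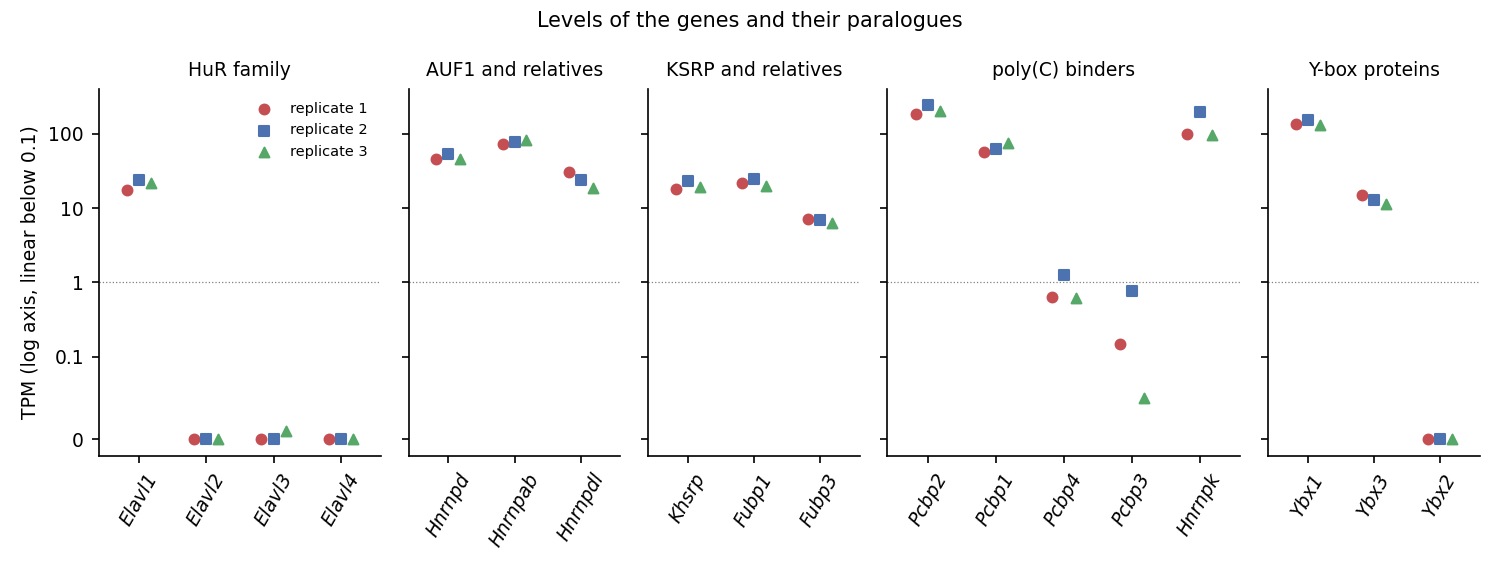
TPM (log axis, linear below 0.1, dotted line at 1 TPM) of the genes and their paralogues in replicates 1, 2 and 3, by family. Elavl1 stands alone in its family, with Elavl2 and Elavl4 at 0, whereas Hnrnpab lies above Hnrnpd, and Hnrnpk lies between Pcbp1 and Pcbp2.

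Each library was then set against the mean of the other 2 in protein-coding CPM. Among the 8 genes, 1 lay past 1.5-fold in any library, and this share is near the background of 13.3% of 9604 expressed genes, so it is not a result about the group. The gene was Tia1, with 26.5, 15.1 and 11.7 protein-coding CPM in replicates 1, 2 and 3. Replicate 1 was 1.97-fold the mean of the others, a step that 4.24% of expressed genes made upwards, and replicate 3 was at 0.567 of the mean of the others, a step that 4.05% made downwards. All 8 genes were at least slightly higher in replicate 1, with a median log2 ratio of 0.11, against 0.09 for all expressed genes. Pcbp2 and Elavl1 were the most even, at 1.03-fold, 1.01-fold and 0.967-fold for Pcbp2 and 1.05-fold, 0.947-fold and 1.00-fold for Elavl1 in replicates 1, 2 and 3. Pcbp1 was uneven, at 1.03-fold, 0.730-fold and 1.29-fold. By the edgeR coefficient of variation, Pcbp2 was at percentile 24.9, Tial1 at 26.2, Ybx1 at 27.5, Pcbp1 at 49.8 and Tia1 at 70.5. The low percentiles of Elavl1, Khsrp and Hnrnpd thus did not hold for all 8 genes. On unscaled TPM no gene of the 8 lay past 1.5-fold in any library, where 28.5% of expressed genes did. Without replicate 1 none did either, where 9.67% of expressed genes did. Tia1 was past it without replicate 2 or without replicate 3, where 9.58% and 9.44% were.

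In replicate 1, Tia1 also had the largest retained-intron share of the members. By alignment-based TPM, Elavl1 was above Tia1 in replicates 2 and 3. Retained-intron transcripts took 43.7%, 9.86% and 13.1% of the TPM of Tia1 in replicates 1, 2 and 3, from 364, 22 and 28 counts. Tial1 had 11.8%, 2.42% and 0.86%, from 403, 15 and 30 counts. Over 5989 expressed genes with such transcripts the median share was 4.84%, 1.05% and 1.05%, and 72.4% of them had their highest share in replicate 1. Elavl1 had 15.5%, 14.6% and 18.3%, highest in replicate 3, but the read-based table gave 20.6%, 14.2% and 20.0%, and the shares by counts were 4.21%, 3.06% and 3.83%, both highest in replicate 1. With retained-intron transcripts left out, Tia1 had 19.4, 14.2 and 11.2 protein-coding CPM and replicate 1 was 1.52-fold the mean of the others, and from protein-coding transcripts alone it was 1.66-fold. Under these settings 13% and 14.8% of expressed genes lay past 1.5-fold in any library. Tial1 was 1.34-fold in replicate 1 with all transcripts and 1.16-fold without retained introns. The nuclear RNAs Malat1, Neat1 and Xist were highest in the same library, at 3.38-fold, 5.08-fold and 24.5-fold the mean of the others, and their part in the Tia1 and Tial1 values was not tested.

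**Figure D4:**
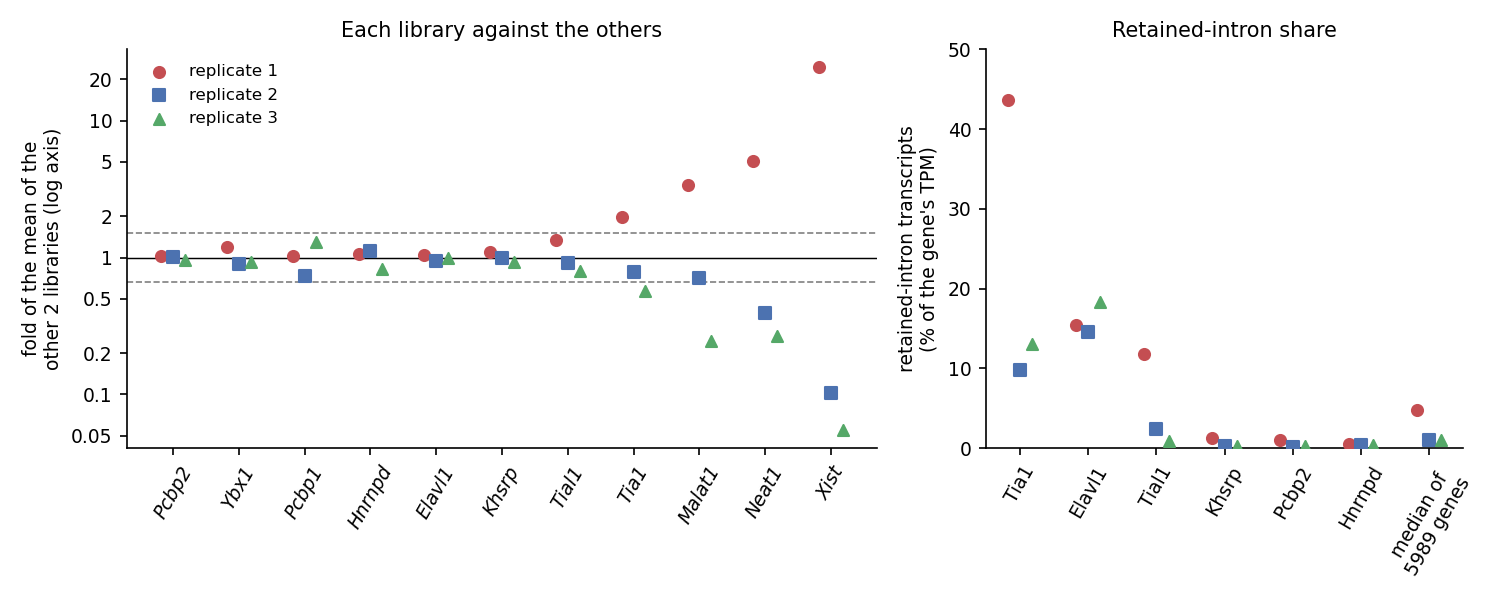
Left, protein-coding CPM of each library as a fold of the mean of the other 2 (log axis, dashed lines at 1.5-fold either way) for the 8 genes and 3 nuclear RNAs; right, retained-intron transcripts as % of the gene's TPM for the 6 members that have them, and the median of 5989 expressed genes. Tia1 is the only member outside the dashed lines, at 1.97-fold in replicate 1, and it has the highest retained-intron share there, 43.7%.

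Non-coding classes as a whole took a median of 16.1% of TPM over the 7 members that have such transcripts, in the order Tia1 48.7%, Hnrnpd 32.2%, Tial1 22.9%, Elavl1 16.1%, Pcbp2 4.41%, Ybx1 1.26% and Khsrp 0.640%. The median of 7889 expressed genes with such transcripts was 5.53%. Because short models gain TPM per read, the shares by counts were lower for most members, at 32.3% for Tia1, 26.7% for Hnrnpd, 13.8% for Tial1, 3.70% for Elavl1, 0.364% for Ybx1 and 0.0861% for Khsrp. Pcbp2 went the other way, at 7.42%. The median of all genes by counts was 2.33%. By TPM, annotated decay targets made up 31.8% of Hnrnpd, 17.9% of Tial1 and 16.4% of Tia1, with SDs of 6.21%, 5.35% and 8.75% over the 3 libraries. By counts they made up 26.6% of Hnrnpd, 7.31% of Tial1 and 16.5% of Tia1, so the order of Tial1 and Tia1 depended on the scale. The median of 2969 expressed genes with such transcripts was 2.58% by TPM and 1.22% by counts.

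Gene levels were alike in both quantifications after rescaling. Both quantifications come from the same reads, so likeness between them is not independent support for the levels. Past 2-fold in all 3 libraries were 0 of the 8 genes. This is near the background of 0.756% of 9655 genes, so it is not a result about the group. The largest difference was that of Tia1, whose read-based level was higher by 0.44, 0.42 and 0.24 on the log2(TPM + 1) scale in replicates 1, 2 and 3. The smallest was that of Khsrp, at -0.01 on average. By mean share of TPM the leading transcript was the same in both tables for 8 of 8 genes, and by share of counts or over protein-coding transcripts for 7, Tia1 being the exception. The lead was narrow for Tia1, at 24.4% for Tia1-201 and 24.1% for Tia1-202 in the alignment-based table. For Hnrnpd it did not hold in every library: in the read-based table Hnrnpd-210 exceeded Hnrnpd-203 in replicates 1 and 3, and without replicate 2 the tables had different leads for Hnrnpd and for Tia1.

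A list of 37 other binders that act on message stability placed the 8 genes in context, of which 35 reached 1 TPM throughout, the list median being 32.9 TPM. Among the highest were the poly(A)-binding protein gene Pabpc1 at 290.0 ± 91.9 TPM, the tristetraprolin gene Zfp36 at 190 ± 2.79 TPM and the cold-inducible Rbm3 at 131 ± 5.73 TPM (SD, n = 3). These small SDs of Zfp36 and Rbm3 hold for unscaled TPM only. Rescaled to protein-coding genes, Zfp36 had 637, 477 and 540 TPM and Rbm3 449, 307 and 388 TPM in replicates 1, 2 and 3. The SD was then 14.6% and 18.6% of the mean, against 1.47% and 4.38% unscaled. Zfp36, which directs AU-rich messages to decay, was 10.7-fold, 8.03-fold and 8.62-fold above Elavl1 in replicates 1, 2 and 3, and 4.12-fold, 3.57-fold and 4.08-fold above Hnrnpd. Past 1.5-fold in any library was 1 of 35 of these binders, against 13.3% of all expressed genes. It was Hnrnpa2b1, named after its value was seen, at 1.64-fold in replicate 1.

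In the list of 20 messages known for AU-rich elements, of which 10 held TTATTTATT, 17 reached 1 TPM throughout, and the list median was 14.8 TPM. The 4 highest were Tnf at 190 ± 49.4 TPM, Zfp36 itself, the chemokine gene Ccl2 at 160 ± 31.5 TPM and the heme-degrading enzyme gene Hmox1 at 128 ± 32.5 TPM (SD, n = 3). Tnf and Zfp36 held TTATTTATT, whereas Ccl2 and Hmox1 each held 0 matches to it and 1 to ATTTA. Among 3′ UTRs of similar length, 65.3% held fewer ATTTA than Ccl2 and 45.1% fewer than Hmox1. Tnf was 9.23-fold, 6.66-fold and 11.3-fold above Elavl1 in replicates 1, 2 and 3. Of the 18 that averaged 1 TPM or more, 12 lay past 1.5-fold in at least 1 library, against 1 of 8 binders described here and 13.3% of all expressed genes. No test of that difference was made.

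By protein-coding CPM over the 3 libraries, the profiles nearest to Elavl1 were those of the kinase gene Stk24, the actin-binding gene Twf2 and the V-ATPase subunit gene Atp6v0d1. Their Euclidean distances were 0.00377 to 0.00516 on the log2 scale, each profile being centred on its mean. The profiles nearest to Hnrnpd were those of the chromatin remodeller gene Smarcad1, Pogz and Lpgat1, at 0.00417 to 0.00643. With 3 points per gene this likeness is only a description: 13.6% of 6642 genes lay within 0.1 of Elavl1 and 10.9% within 0.1 of Hnrnpd.

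Several members overlap other genes, and whether strand was used in counting is not given in the sources used here, so reads of the overlaps may be shared. Ccl25 on the opposite strand of the Elavl1 start had 383, 72 and 109 counts, against 3539, 1346 and 2895 for Elavl1. Map3k12, opposite the Pcbp2 end, had 556, 207 and 423 counts, and the antisense RNA 1600020E01Rik at the Pcbp1 start had 135, 21 and 70. The noncoding Gm26518, opposite the Pcbp2 start, had 167, 10 and 20 counts, and Gm17092, antisense to Hnrnpd, had 12.1, 5.01 and 7.06. Each was well under the member it overlaps.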

How the data were processed

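Cytosolic total RNA of 3 libraries, all of 1 group, was analysed. Per the file headers, the authors deposited gene and transcript tables with expected counts, TPM and a credibility interval of TPM (its bounds, a signal per gene), and a read-based transcript table of TPM and estimated counts. The description files give transcriptome alignment as the origin of the first tables, with mm10 and GENCODE M21; programs and strand use: not given in the sources used here. From these, TPM was rescaled over 22015 nuclear protein-coding genes, counts were divided by their summed counts (protein-coding CPM, offset 0.1), and transcript shares were summed by class and exon. Dispersion was estimated with edgeR 4.0.16 (counts rounded to whole numbers, intercept only, TMM) and with DESeq2 1.42.0 in R 4.3.3. In simulated data where all 12361 genes shared a coefficient of 0.2, the median edgeR estimate was 0.207. Because all genes shared it, the simulation checks the median only and not the percentiles of single genes. Copies were sought with blastn 2.17.0 (at least 90% identity over at least 50%). Other steps used Python 3.11.15, pandas 2.3.3 and numpy 2.4.6. Named genes were the 8 members, every paralogue, the 4 highest of each other list (1 of them is not reported here), Tnf, the 3 nearest profiles of Elavl1 and Hnrnpd, the 2 most counted copies and 3 nuclear RNAs; transcripts were the leading 2 and those of at least 10%. The overlapping genes were chosen after their values were seen. The members and lists were chosen with earlier results of these data known. Annotations and sequences are from GENCODE M21.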

Additional observations from a re-analysis of the deposited data

How the results depend on the processing

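No paired analysis was possible because the libraries form 1 group. The median level of the 8 genes, 34.9 TPM, was 17.8 TPM from the read-based table and 100.0 TPM after rescaling to protein-coding genes, and 32.8 to 36.5 TPM with a library left out. The 6 separated neighbour pairs were 5 after rescaling to protein-coding genes. In unscaled read-based TPM, whose protein-coding share was 20.5%, 21.4% and 7.95% in replicates 1, 2 and 3, they were 0. Once the read-based values were rescaled they were 4, a setting chosen after seeing the data. The 1 gene past 1.5-fold in a library, Tia1, became 0 on TPM, at a limit of 2-fold and at a mean of at least 5 TPM, which Tia1 lacks, where 28.5%, 2.81% and 8.69% of genes were past it, and 0 to 1 with a library left out, where 9.44% to 9.67% were. The members' median coefficient of variation of 0.143 was 0.120 with DESeq2 and 0.0720 with each gene alone, and 0.143 to 0.160 with a library left out. The median non-coding share of 16.1% was 18.3% in the read-based table, 7.42% by counts, 7.08% over complete transcript models (chosen after seeing the data), and 15.0% to 16.9% with a library left out. The causes were not tested. The same leading transcript was found for 7 genes by counts and over protein-coding transcripts, and for 6 to 8 genes with a library left out, 6 without replicate 2, where Hnrnpd and Tia1 differed. The count past 2-fold between quantifications stayed 0 in the settings tried, where 0.466% to 1.24% of all genes were called. For single genes, 31 of 48 levels, 38 of 46 exon inclusions and 39 of 44 transcript shares moved by less than 1 SD. These tallies include the settings with a library left out, which cannot move a mean of 3 libraries by 1 SD. They are therefore no measure of robustness. The 17 levels, 8 inclusions and 5 shares that moved did so under another table, scale or set of models. Depth limits low genes most in replicate 2, and Tia1 had the fewest counts of the 8.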
